A study of Homo sapiens with 3 samples.

Results

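The 9 enzymes that make serine and pass its one-carbon unit to folate were examined in H9 human embryonic stem cells (hESCs), out of 58051 genes listed by Ensembl identifier. The members were chosen by name: PHGDH, PSAT1 and PSPH of serine synthesis, SHMT1 and SHMT2 that split serine, and MTHFD1, MTHFD2, MTHFD1L and MTHFD2L that interconvert one-carbon folates. All 9 were found once in the count tables and all had reads in every replicate, so none was lost to a filter on low values.

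Serine is built from the glycolytic intermediate 3-phosphoglycerate by PHGDH, PSAT1 and PSPH in turn, all in the cytosol. SHMT enzymes then move a carbon of serine onto tetrahydrofolate, which yields glycine and 5,10-methylene-tetrahydrofolate, and MTHFD enzymes oxidise that carbon as far as formate or use formate to charge folate again. Mitochondria and cytosol hold parallel sets of these folate enzymes, and the carbon units serve purine, thymidylate and methionine synthesis, which proliferating cells such as pluripotent stem cells need.

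The data were total RNA from 3 replicates (triplicates) of one group: H9, an established hESC line, WT in genotype, with no treatment, grown in Essential 8 Flex medium on plates coated with vitronectin. Ribosomal RNA was depleted before library preparation, and the replicates gave 10390984, 12024802 and 8655155 counted reads. The labels do not say whether the replicates were separate cultures, so their spread may be technical, and with 1 line and 1 condition nothing here compares treatments. In bulk RNA, fewer expressing cells and less RNA per cell cannot be told apart.

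The labelled cell type was checked first. All 9 pluripotency markers, POU5F1, NANOG and SOX2 among them, were in the high class of expression, with mean levels from 258.6 to 2576 TPM (a level per length of gene, scaled to the same sum in each replicate). The neural, mesoderm, endoderm and fibroblast lists had 0 of 3 genes each in that class, and their summed levels spanned 3.67 to 5.69, 19.1 to 30.5, 8.33 to 12.6 and 16.3 to 19.6 TPM over the replicates. NEUROG2, a neural marker, had 0 counts, and MIXL1 of the mesoderm list reached 22.3 TPM.

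RNA of most serine and one-carbon enzymes was abundant in H9 cells. Counts of the 9 genes summed to 15828, 18680 and 12760 reads, which was 0.152%, 0.155% and 0.147% of the libraries (mean 0.152% ± 0.00400, SD, n = 3). The median level of the 9 genes was 74.1 TPM, where the median protein-coding gene had 7.10 TPM. By the thresholds of the study's methods, with genes below 0.01 TPM called nonexpressed and the others split into 3 quantiles, 8 of the 9 members were in the high class and MTHFD2L was in the medium class. The high class held 28.8% of the 19629 protein-coding genes and began at 26.96 TPM. Levels within the family ranged 125-fold, from MTHFD2L to PSAT1, with this length of gene.

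The length used for a gene bears on all of these levels. The main TPM divides by the union of all exons annotated in GENCODE 44. For 3.74% of the 18964 protein-coding genes with a MANE Select transcript (the one transcript chosen to represent a gene) that union is over 4 times the length of the transcript, and PHGDH, MTHFD1 and MTHFD2L were among them. Levels per length of the MANE Select transcript are therefore given beside the main ones. On that scale the median of the members was 119 TPM, 8 of 9 members were again in the high class, which began at 27.02 TPM, and MTHFD2L was again the exception. The range was then 33.4-fold, from MTHFD2L to PHGDH.

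**Figure D1:**
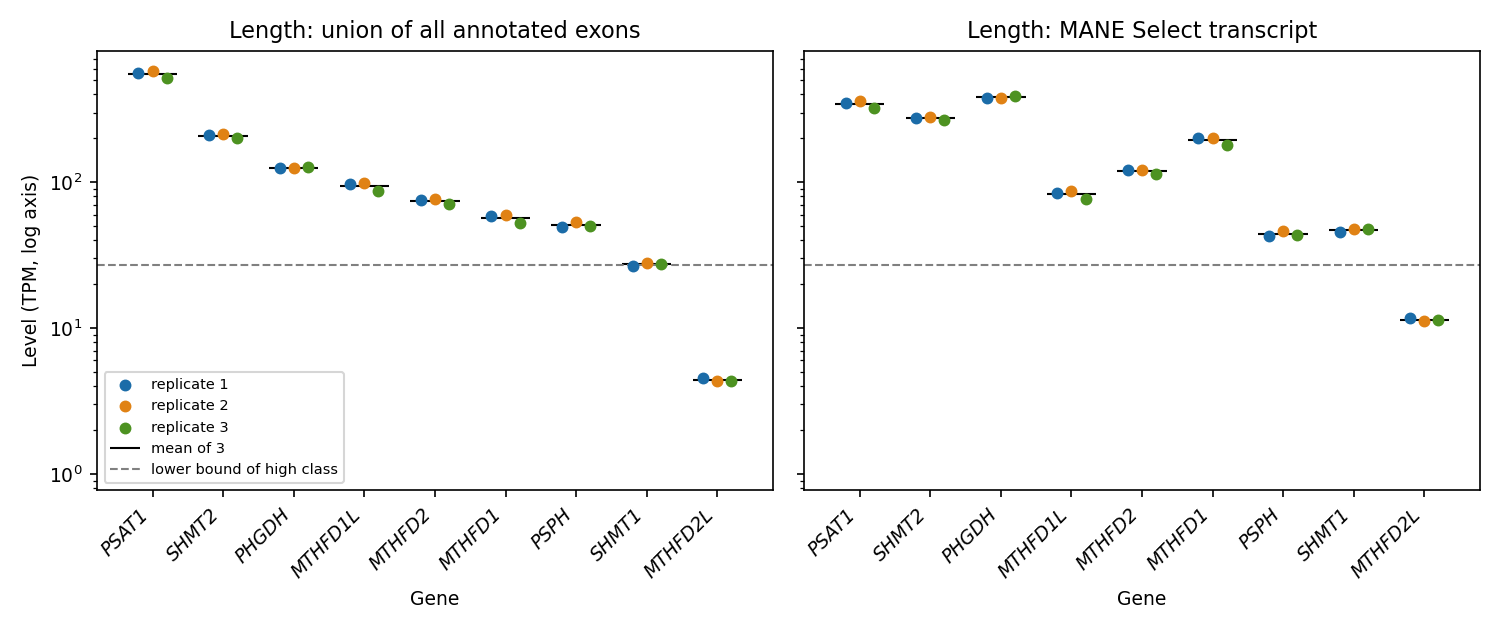
Levels of the 9 enzymes in TPM on a log axis, one point per replicate and a line at the mean of 3, with the union of exons as gene length on the left and the MANE Select transcript on the right; the dashed line is the lower bound of the high class. PSAT1 led on the left at 555 TPM, PHGDH led on the right at 381 TPM, and MTHFD2L lay below the dashed line in both panels.

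The first enzyme of the pathway, PHGDH (ENSG00000092621), oxidises 3-phosphoglycerate and commits it to serine. The gene lies at chr1:119648411-119744218 on the plus strand (GRCh38, as are all coordinates). It received 2975, 3466 and 2580 counts, or 124.4, 124.7 and 126.5 TPM (mean 125 ± 1.16, SD, n = 3), and 93.8% of protein-coding genes were lower. Its replicates were the closest of the 9 members, with a coefficient of variation (CV) of 0.927% where counting error alone gives 1.84%. The union of PHGDH exons covers 9187 bases and its MANE Select transcript 1866 bases, and per length of the latter the level was 377.7, 378.8 and 387.3 TPM (mean 381 ± 5.25).

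PSAT1 (ENSG00000135069, chr9:78297125-78330093, plus strand) is the aminotransferase that turns the product of PHGDH into phosphoserine. Its counts were 3242, 3876 and 2546, and its levels of 564.5, 580.6 and 520.0 TPM (mean 555 ± 31.4) placed it at rank 172 among protein-coding genes. Every replicate of PSAT1 was above every replicate of any other member on this scale. Its exon union and its MANE Select transcript have the same length of 2206 bases, and the level by transcript length was 348.2, 358.3 and 323.3 TPM (mean 343 ± 18.0). On that scale PSAT1 stood behind PHGDH. The log2 ratio of PHGDH to PSAT1 was -2.15 ± 0.10 by exon union and 0.15 ± 0.10 by transcript, so the order of this pair depends on the length chosen.

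PSPH (ENSG00000146733, chr7:56011051-56051604, minus strand) removes the phosphate in the last step. Its RNA was the least abundant among the 3 serine synthesis genes on both scales. Its 356, 446 and 307 counts corresponded to 49.5, 53.4 and 50.1 TPM (mean 51.0 ± 2.08), and to 42.7, 46.1 and 43.6 TPM by transcript length (mean 44.1 ± 1.74). PSAT1 exceeded PSPH 10.9-fold (log2 ratio 3.44 ± 0.07) by exon union and 7.78-fold by transcript length. PHGDH exceeded it 2.46-fold (log2 ratio 1.30 ± 0.06) and 8.65-fold.

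Serine hydroxymethyltransferases differed by compartment. SHMT2 (ENSG00000182199, chr12:57229573-57234935, plus strand), the mitochondrial enzyme, had 2514, 2960 and 2058 counts and levels of 210.3, 213.0 and 201.9 TPM (mean 208 ± 5.78). SHMT1 (ENSG00000176974, chr17:18327860-18363563, minus strand), the cytosolic enzyme, had 486, 589 and 429 counts and 26.6, 27.8 and 27.6 TPM (mean 27.3 ± 0.606). The lowest SHMT2 replicate was therefore far above the highest SHMT1 replicate. The log2 ratio of SHMT2 to SHMT1 was 2.98, 2.94 and 2.87 in replicates 1 to 3 (mean 2.93 ± 0.05, 7.63-fold). By transcript length the means were 274 ± 6.47 and 46.9 ± 1.14 TPM, and the ratio was 2.55 ± 0.05 (5.85-fold).

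With 27.3 TPM, SHMT1 lay just inside the high class, and it is a borderline member of it. It was in the medium class when any 1 of the 3 replicates was left out, when the median replaced the mean, when the classes left out genes below 1 TPM or under 10 counts, and when only unshared exon bases gave the length. PSPH was in the medium class when levels were taken as CPM, a share of the library without length. By transcript length both were inside, SHMT1 at 46.9 and PSPH at 44.1 TPM against a bound of 27.02.

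**Figure D2:**
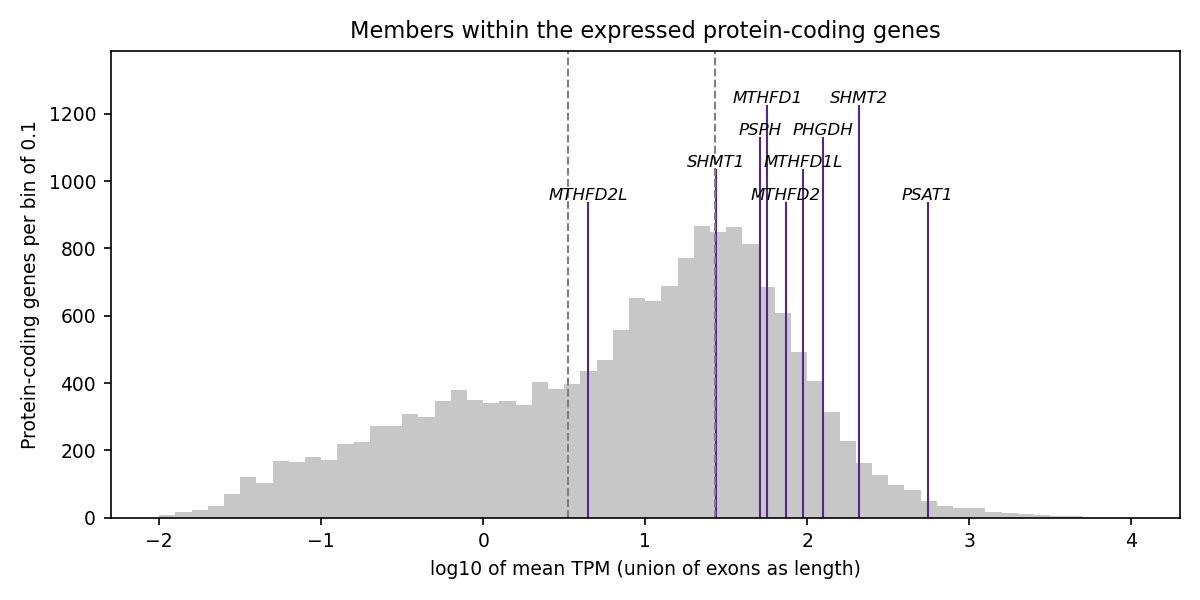
Number of expressed protein-coding genes by log10 of mean TPM (grey bars, bins of 0.1), with a line for each of the 9 enzymes and dashed lines at the class bounds of 3.35 and 26.96 TPM. PSAT1 stands near the right end, SHMT1 at the upper bound and MTHFD2L inside the medium class.

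The dehydrogenase and cyclohydrolase pair of mitochondria was led by MTHFD2 (ENSG00000065911, chr2:74186172-74217565, plus strand), which is known for its expression in embryonic and transformed cells. MTHFD2 had 2258, 2633 and 1786 counts and 75.8, 76.0 and 70.3 TPM (mean 74.1 ± 3.23). Its paralog MTHFD2L (ENSG00000163738, chr4:74114174-74303099, plus strand), which catalyses the same reactions, had 117, 129 and 95 counts and 4.58, 4.34 and 4.36 TPM (mean 4.43 ± 0.131). MTHFD2L was the lowest member in every replicate, with 44.8% of protein-coding genes below it. The log2 ratio of MTHFD2 to MTHFD2L was 4.05, 4.13 and 4.01 (mean 4.06 ± 0.06, 16.7-fold), the largest gap among the 3 pairs of paralogs. By transcript length the levels were 119 ± 4.68 and 11.4 ± 0.316 TPM and the ratio 3.38 ± 0.06 (10.4-fold), again the largest of the 3 with MTHFD2 on top.

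MTHFD1 and MTHFD1L did not keep their order. MTHFD1 (ENSG00000100714, chr14:64388031-64463457, plus strand) is the cytosolic protein that joins dehydrogenase, cyclohydrolase and formyl-tetrahydrofolate synthetase activities, and it had 2653, 3121 and 2016 counts. MTHFD1L (ENSG00000120254, chr6:150865679-151101887, plus strand) is the mitochondrial synthetase that releases formate, and it had 1227, 1460 and 943 counts. Thus MTHFD1 had more reads in every replicate.

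By exon union the levels were 58.7, 59.4 and 52.3 TPM for MTHFD1 (mean 56.8 ± 3.91) and 96.4, 98.6 and 86.9 TPM for MTHFD1L (mean 94.0 ± 6.25). The log2 ratio of MTHFD1L to MTHFD1 was 0.71, 0.73 and 0.73 (mean 0.73 ± 0.01, 1.65-fold). The union of MTHFD1 exons covers 17357 bases, however, against 3154 bases in its MANE Select transcript, while MTHFD1L has 4891 and 3451 bases. By transcript length MTHFD1 was at 193 ± 12.5 TPM and MTHFD1L at 82.4 ± 5.13 TPM, so the log2 ratio turned to -1.23 ± 0.01. The small SD of this ratio on both scales is the spread between replicates, and the choice of length moves the value far more than the replicates do.

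**Figure D3:**
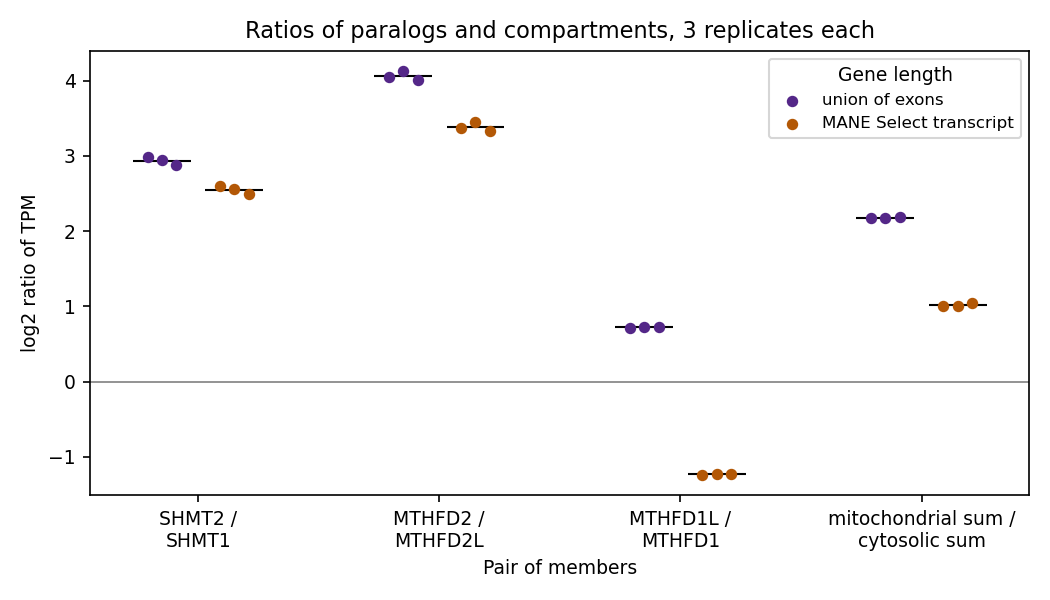
log2 ratio of TPM for 3 pairs of paralogs and for the summed mitochondrial over summed cytosolic folate enzymes, with one point per replicate and a line at the mean, by exon union and by MANE Select transcript. SHMT2 over SHMT1 (2.93 and 2.55) and MTHFD2 over MTHFD2L (4.06 and 3.38) stay above 0, and MTHFD1L over MTHFD1 changes sign (0.73 and -1.23).

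Summed over a compartment, transcripts of the mitochondrial enzymes prevailed on both scales. SHMT2, MTHFD2, MTHFD2L and MTHFD1L together reached 381 ± 15.3 TPM, and SHMT1 with MTHFD1 reached 84.1 ± 3.79 TPM. The log2 ratio of these sums was 2.18, 2.17 and 2.19 (mean 2.18 ± 0.01, 4.53-fold). By transcript length the sums were 487 and 240 TPM and the ratio 1.02 ± 0.02 (2.03-fold). The mitochondrial sum holds more genes than the cytosolic one, and SHMT2 was its largest term on both scales (208 and 274 TPM). By transcript length MTHFD1 (193 TPM) was above each of MTHFD2 (119 TPM), MTHFD1L (82.4 TPM) and MTHFD2L (11.4 TPM). Sums without SHMT2 were not compared. These sums are of RNA and say nothing of enzyme amount or flux. No ratio between members was tested, although 3 replicates leave 2 degrees of freedom. An exact two-sided sign-flip permutation test cannot go below p = 0.25 with 3 replicates.

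In descending order of mean TPM the members were PSAT1, SHMT2, PHGDH, MTHFD1L, MTHFD2, MTHFD1, PSPH, SHMT1 and MTHFD2L. Of the 8 pairs of neighbours in that order, only MTHFD1 and PSPH had replicate ranges that overlapped (log2 ratio 0.15 ± 0.09). The narrowest gap without overlap was that of MTHFD1L over MTHFD2 (1.27-fold), and the widest that of SHMT1 over MTHFD2L (6.17-fold). By transcript length the order was PHGDH, PSAT1, SHMT2, MTHFD1, MTHFD2, MTHFD1L, SHMT1, PSPH and MTHFD2L, and again a single pair, SHMT1 and PSPH, overlapped (log2 ratio 0.09 ± 0.04). On both scales PHGDH, PSAT1 and SHMT2 filled the top 3 places and MTHFD2L the last.

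Reads could in principle be confused between paralogs, so the coding sequences of the MANE Select transcripts were aligned and the longest run shared by each pair was found. It is shown in capitals within the flanking coding sequence of both genes, 5′ to 3′ (GENCODE 44, GRCh38). SHMT1 and SHMT2 shared 942 of 1434 aligned bases (65.7%) and a longest run of 18 bases. The run lies in exon 10 of both genes. The windows shown cover chr17:18330555-18330594 and, for the end of the flank in exon 11, chr17:18329371-18329388 (minus strand) for SHMT1, and chr12:57233826-57233883 (plus strand) for SHMT2.
SHMT1: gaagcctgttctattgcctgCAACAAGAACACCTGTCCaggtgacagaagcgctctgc
SHMT2: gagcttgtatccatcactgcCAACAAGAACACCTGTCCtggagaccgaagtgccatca

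MTHFD2 and MTHFD2L were the most alike, with 672 of 972 aligned bases identical (69.1%) and a longest run of 20 bases, in exon 5 of each gene (windows chr2:74209942-74210001 and chr4:74201263-74201322, both plus strand).
MTHFD2: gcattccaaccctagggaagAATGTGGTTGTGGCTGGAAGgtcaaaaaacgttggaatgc
MTHFD2L: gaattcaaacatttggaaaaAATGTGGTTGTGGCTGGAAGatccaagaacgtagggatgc

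MTHFD1 and MTHFD1L shared 1744 of 2746 aligned bases (63.5%) and no run longer than 14 bases. That run spans exons 10 and 11 of both genes (windows chr14:64425803-64425827 and chr14:64426019-64426047; chr6:150922278-150922302 and chr6:150926122-150926150, all plus strand).
MTHFD1: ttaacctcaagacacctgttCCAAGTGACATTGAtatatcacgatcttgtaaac
MTHFD1L: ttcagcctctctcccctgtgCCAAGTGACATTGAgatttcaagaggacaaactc

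Partial or full copies of the coding sequences elsewhere in the genome held few of the counts, where they could be looked up. Annotated transcripts of 24 genes matched the coding sequence of a member over at least 200 bases at 90% identity or more. Of these, 14 were in the count tables, and together they had 30 counts, or 0.0635% of the members' counts. For MTHFD1L, 6 of 16 copies were in the count tables, with 21 counts or 0.579% of the MTHFD1L counts. Transcripts of 510 genes that matched PSPH, and 1 that matched MTHFD2, only outside the coding sequence are not in these sums. PSAT1P1, PSAT1P3 and PSAT1P4 had 0 counts, as did MTHFD2P5 and MTHFD2P7, which allows up to 3 counts each. MTHFD1P1, which matches MTHFD1 over 2806 bases at 93.1%, had 7 counts, and ENSG00000182021 on chromosome 9, a partial copy of MTHFD1L, had 12. How the counting treated reads that map to several places is not given in the sources used here.

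Overlap with other genes was a larger uncertainty for the folate enzymes than for serine synthesis. PHGDH, PSAT1, PSPH and MTHFD1L share no exon base with another annotated gene. SHMT1 shares 3.85% of its exon bases, SHMT2 8.38%, MTHFD1 11.1%, MTHFD2 14.2% and MTHFD2L 1.77%. Whether the counting used strand is not stated, and most of these partners lie on the opposite strand.

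In MTHFD1, the lncRNA ENSG00000272909 (714 counts over the 3 replicates) covers 1556 bases of annotated exon, ENSG00000258824 (217 counts) covers 186 and ZBTB25 (1305 counts) covers 178. ENSG00000272909 shares 83.2% of its length and had 382 reads per kilobase, against 449 for MTHFD1 by exon union and 2470 by the MANE Select transcript. How reads in the shared bases were assigned is not given in the sources used here. In MTHFD2, SLC4A5 (676 counts) covers 1324 bases and the protein-coding gene ENSG00000264324 (950 counts) covers 295 bases. SHMT1, the member at the bound of the high class, shares 197 bases with SMCR8 (3131 counts). SMCR8 had 377 reads per kilobase, against 214 for SHMT1 by exon union. SHMT2 shares 352 bases with ENSG00000276727 (72 counts) and 33 bases with NDUFA4L2 (33 counts), and MTHFD2L shares 174 bases with ENSG00000269559 (10 counts).

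The spread of each member between the libraries was then compared with counting error, by a Pearson chi-square of its counts against the library totals, with Benjamini-Hochberg adjustment over 21366 genes with at least 10 counts. At an adjusted p under 0.05, 2 of the 9 members varied more than counting error, where 9.02% of all tested genes did. Of the 6015 genes with 1000 to 10000 counts, the depth at which 8 members lie, 17.4% were called, so 2 of 8 is near that background. The test compares libraries of 1 condition and no conditions.

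The members called were MTHFD1, with a CV of 6.87% where counting gives 1.98% (chi-square adjusted p = 0.00817), and PSAT1, with 5.66% where counting gives 1.78% (chi-square adjusted p = 0.0227). In both, replicates 1 and 2 lay close together and replicate 3 lay below them. MTHFD1L showed a like CV of 6.65% at a counting error of 2.90% and was not called (chi-square adjusted p = 0.189), although it was with DESeq2 size factors in place of library totals. The other members gave adjusted p values of the same chi-square test of 0.417 for MTHFD2, 0.603 for PHGDH, 0.756 for SHMT2, 0.787 for PSPH, 0.848 for SHMT1 and 0.976 for MTHFD2L.

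Replicate 3 carried these calls. Its log2 ratio to the mean of replicates 1 and 2 was -0.17 in MTHFD1, -0.17 in MTHFD1L, -0.14 in PSAT1 and -0.11 in MTHFD2, and smaller in SHMT2 (-0.07), PSPH (-0.04) and MTHFD2L (-0.03). SHMT1 and PHGDH were level, at 0.02 each. Replicate 3 thus lay below the others' mean in 7 of 9 members, with a median of -0.07, where the median over 9332 genes with at least 100 counts per replicate was -0.03 and the quartiles were -0.12 and 0.08. Without replicate 3 the chi-square test called 0 members (0 also at an unadjusted p under 0.05) and 1.05% of all tested genes, and without replicate 2 it called MTHFD1 alone. Over the same 9332 genes that ratio rose with the GC content of the transcript (Spearman rho 0.431 across genes, which share the libraries), and over the 9 members rho was 0.283. The part of GC content in the members' spread was not tested. Pluripotency markers also varied between the libraries: 6 of 9 exceeded counting error by the same test. Among the 8 with over 10000 counts it was 5, where 62.6% of all genes at that depth were called. Replicate 3 was the lowest in 6 and the highest in 2 of the 9, and their summed level was 8218, 8061 and 7776 TPM in replicates 1 to 3. Of the lineage markers that could be tested, MIXL1 alone was called, at 28.1, 21.9 and 16.8 TPM. Replicate 3 was the highest in all 3 fibroblast markers (summed 16.3, 16.6 and 19.6 TPM) and in 2 of 3 neural markers (summed 3.67, 4.78 and 5.69 TPM). It was the lowest in 2 of 3 endoderm and 1 of 3 mesoderm markers, and the highest in 0 of either list. None of the fibroblast, neural and endoderm orders was shown to exceed counting error, and TWIST1, with 0, 1 and 2 reads, was too low to test. The part of cell state in the members' spread was not tested.

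**Figure D4:**
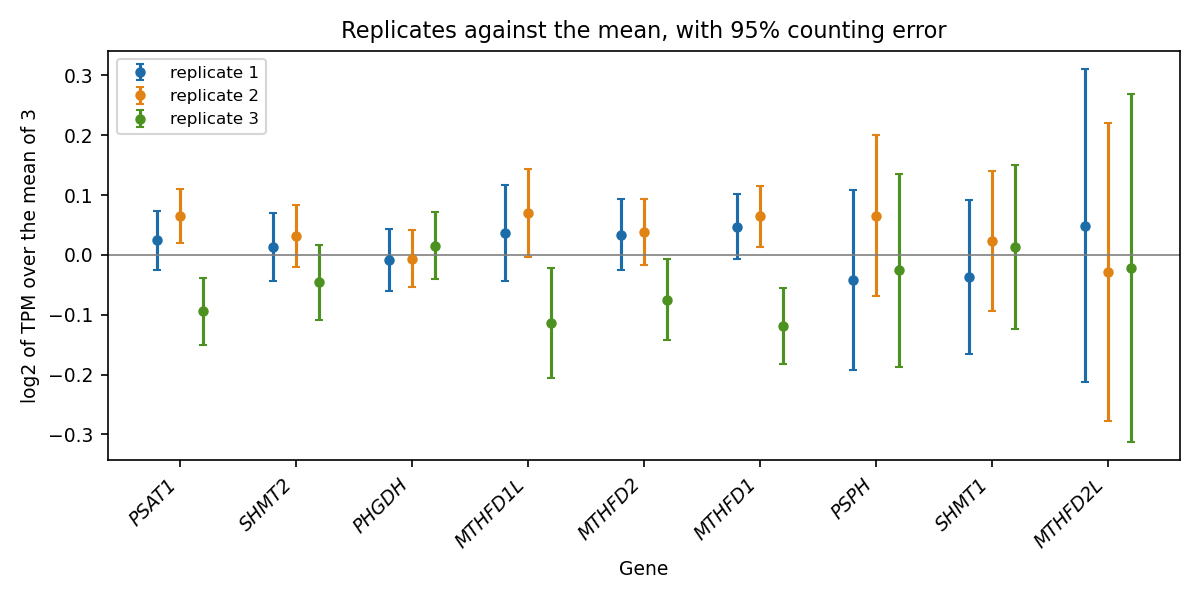
log2 of each replicate's TPM over the mean of 3 for the 9 enzymes, with bars for the 95% counting error of the replicate's own count. Replicate 3 is low in PSAT1, MTHFD1L, MTHFD2 and MTHFD1, and the wide bars of MTHFD2L come from its counts of 117, 129 and 95.

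Sequence before annotated transcript starts was examined for what the members share beyond their reactions. RefSeq promoter entries on GRCh38.p14 were found for 7 of the 9 members, all but PSPH and SHMT2, and the 250 bases before the start in each entry were searched on both strands. That start is the start of the MANE Select transcript for all but MTHFD1L, whose entry begins 631 bases downstream of it. The window of MTHFD1L therefore lies inside the gene. Those of PHGDH, MTHFD1, MTHFD2 and MTHFD2L also lie inside the annotated span of the gene, which begins upstream of the MANE Select start. The motifs were CCAAT (the CCAAT box, bound by NF-Y), GGGCGG (the GC box, bound by Sp factors), CACGTG (an E-box, bound by MYC among others) and TGATGNAA (the C/EBP-ATF response element, through which ATF4 acts on amino acid genes). No match overlapped a match of another motif.

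CCAAT was present in 6 of the 7 windows, that of MTHFD1L included, where 34.9% of 15050 protein-coding promoters hold it. The exception was MTHFD2L. The match is shown in capitals with its neighbours, on the strand of the gene, for all 6 genes, with every match where a gene has several.
PHGDH, 71 bases before the start, chr1:119711863-119711867: gtatttccgtCCAATcaaaaggaga
PSAT1, 113 bases before the start, chr9:78297012-78297016: agaagcgcgaCCAATggggatgtga
PSAT1, 83 bases before the start, chr9:78297042-78297046: ttcgcgcgaaCCAATtagcgcaggg
PSAT1, 52 bases before the start, chr9:78297073-78297077: acagcacgggCCAATggggcgccga
SHMT1, 76 bases before the start, chr17:18363622-18363626: tgcgccgcagCCAATagcgcgggtg
SHMT1, 25 bases before the start, chr17:18363571-18363575, motif on the other strand: gcgctctctgATTGGgcgcctccgg
MTHFD1, 216 bases before the start, chr14:64388137-64388141: tttctttccgCCAATcatttccgcc
MTHFD2, 184 bases before the start, chr2:74198431-74198435: tcttctggctCCAATcaaaagcagg
MTHFD2, 74 bases before the start, chr2:74198541-74198545: gcggcagggaCCAATgggtggcgga
MTHFD1L, 40 bases before the start, chr6:150866293-150866297: gtgggcatctCCAATgggcgcctag

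GGGCGG was found in 4 of 7 promoters (PSAT1, SHMT1, MTHFD1L and MTHFD2L), where 59.7% of all hold it. CACGTG was found only in MTHFD1, where 7.89% hold it, 15 bases before the start (chr14:64388338-64388343).
MTHFD1: agtccctaagCACGTGggttgggtt

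TGATGNAA was found in 0 of 7 of these windows, where 2.12% of all promoters hold it. Of all starts that the table lists, 2.37% of 21491 have the motif in their 250 bases, and 2 further starts of MTHFD1L share a match at chr6:150866357-150866364, plus strand, 129 and 90 bases before them and again downstream of the MANE Select start, shown here with its surroundings.
MTHFD1L: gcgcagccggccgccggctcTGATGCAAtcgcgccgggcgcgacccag

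Matches of a few letters describe the sequence and are not measured binding sites, and a window without a match says only that the letters are not there. No expression value was tested against a motif.

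Genes connected to the members were taken from 8 lists with 48 genes in all. Of these, 23 (47.9%) were in the high class, 14 in the medium class, 10 in the low class and 1 was nonexpressed, against 28.8% of protein-coding genes in the high class. By transcript length 24 were in the high class. The spread between libraries exceeded counting error in 4 of the 45 genes that had at least 10 counts, where 9.02% of all tested genes did.

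**Figure D5:**
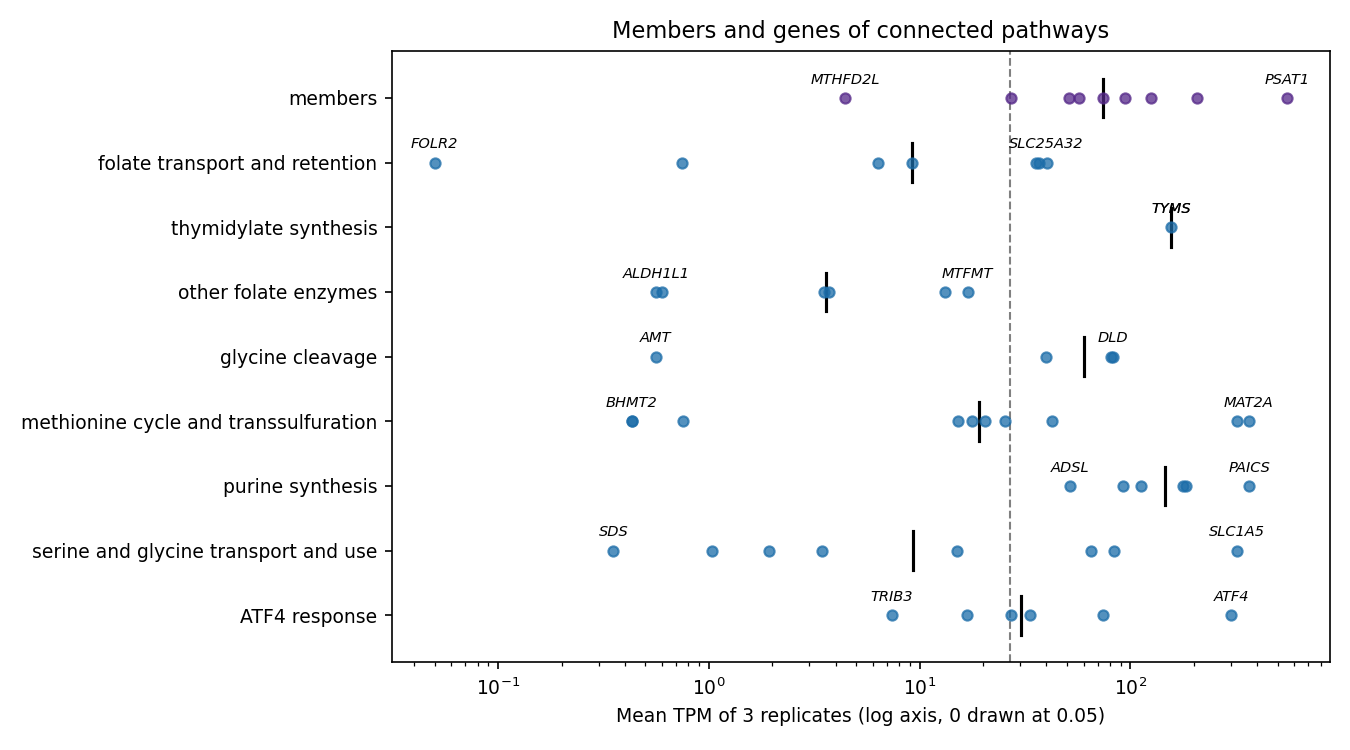
Mean TPM of 3 replicates (log axis) for the 9 enzymes and the genes of 8 connected lists, one point per gene, a black line at the median of each list and a dashed line at the lower bound of the high class; a gene at 0 is drawn at 0.05. All 6 purine synthesis genes lie right of the dashed line, and none of the 6 other folate enzymes does.

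All 6 genes of purine synthesis, which takes formyl groups from folate, were in the high class, from ADSL at 51.6 ± 2.70 TPM to PAICS at 367 ± 22.3 TPM. By transcript length PAICS was again highest (268 TPM), and PPAT (84.7 TPM) was below ADSL (88.7 TPM). TYMS, which makes thymidylate from 5,10-methylene-tetrahydrofolate, had 160.7, 156.1 and 151.5 TPM (mean 156 ± 4.62), although 47.9% of its exon bases are shared with other genes.

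Glycine made by SHMT2 can be cleaved in mitochondria by the glycine cleavage system. Of its 4 genes, GLDC, GCSH and DLD were in the high class. DLD had 83.1 ± 5.21 TPM, and GLDC, the decarboxylase, had 85.2, 83.5 and 75.1 TPM (mean 81.3 ± 5.38). These levels overlapped, and by transcript length GLDC (116 TPM) was above DLD (74.2 TPM). AMT, the aminomethyltransferase that puts the carbon on folate, was in the low class at 0.560 ± 0.0207 TPM (0.984 TPM by transcript length), with 62.6% of its exon bases shared with other genes. SHMT2 exceeded GLDC 2.57-fold (log2 ratio of TPM 1.36 ± 0.06; 1.24 by transcript length).

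None of the 6 other folate enzymes was in the high class. ALDH1L1, the cytosolic enzyme that oxidises formyl-tetrahydrofolate to carbon dioxide, had 0.504, 0.458 and 0.723 TPM (mean 0.562 ± 0.142), and its mitochondrial paralog ALDH1L2 had 3.80, 4.04 and 3.28 TPM (mean 3.71 ± 0.391). By transcript length they were closer, at 1.56 and 2.93 TPM. MTFMT, which formylates the mitochondrial initiator tRNA, had 16.9 ± 1.32 TPM by exon union and 13.1 TPM by transcript length. Both ALDH1L genes were therefore far below MTHFD1, MTHFD1L and MTHFD2 in every replicate.

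Among 7 genes of folate transport and retention, 3 were in the high class, and 4 were by transcript length. SLC25A32, the mitochondrial folate carrier, had the highest mean by exon union, 40.1 ± 3.79 TPM, although 80.8% of its exon bases are shared with other genes. Its replicates overlapped those of SLC19A1, the reduced folate carrier, which was above it in replicate 3 (40.6 against 35.8 TPM). By transcript length SLC25A32 had 31.3 TPM, and SLC19A1 was highest at 51.3 TPM. FOLR2, a folate receptor, had 0 counts in each replicate, which allows up to 3 counts. Of 10 genes of the methionine cycle and transsulfuration, 3 were in the high class, led by MAT2A, the S-adenosylmethionine synthetase, at 366 ± 19.4 TPM; by transcript length 4 were, and MAT2A and AHCY were level at 360.0 and 359.8 TPM. The share of 30.0% in the high class by exon union is close to the 28.8% of all protein-coding genes, and MTR, which takes the methyl group from folate, was in the medium class at 17.7 ± 0.918 TPM. BHMT2 (0.430 ± 0.166 TPM) and MAT1A (0.430 ± 0.162 TPM) were lowest and level with each other, at 3 to 7 and 3 to 5 reads per replicate; by transcript length MAT1A was the lower (0.288 against 0.381 TPM). Of 8 genes of serine and glycine transport and use, 3 were in the high class, led by SLC1A5, a carrier of neutral amino acids, at 322 ± 11.6 TPM. SDS, the serine dehydratase of liver, was lowest at 0.353 ± 0.237 TPM.

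ATF4, the transcription factor known to drive PHGDH, PSAT1, SHMT2 and MTHFD2 under amino acid stress, had 300.5, 306.5 and 296.4 TPM (mean 301 ± 5.10), although ATF4 is regulated mainly in translation and its RNA is not a measure of its activity. Of the 6 genes of the ATF4 response list, itself included, 4 were in the high class, and TRIB3, a stress-induced target, was lowest at 7.41 ± 1.33 TPM. By transcript length 3 of the 6 were in the high class.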

How the data were processed

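Deposited counts were raw, whole read numbers for each gene in 3 libraries. Per the labels, the authors used Trim Galore 0.4.4, TopHat2 2.1.1 and GRCh38 (names from the submitters' processing notes); the counting tool, its gene models and its strand setting were not given in the sources used here. The study's own TPM came from Cufflinks 2.2.1 and was not used here. Identifiers were joined to GENCODE 44 (56948 of 58051 matched) and TPM was computed from union exon length, or MANE Select length as an alternative. Classes followed the study's methods over protein-coding genes. Copies were sought with blastn 2.17.0. Totals of 8655155 to 12024802 counts limit low levels, and intervals and limits of 3 counts cover counting error only. Alternatives were other lengths, CPM, edgeR 4.0.16 TMM and DESeq2 1.42.0 scaling, other filters, and leaving out replicates. The chi-square step was tested on simulated data. Scripts ran in Python 3.11.15 (scipy 1.17.1, pandas 2.3.3, numpy 2.4.6, Biopython 1.88, matplotlib 3.10.9) and R 4.3.3.

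Members and lists were chosen with earlier results of these data known, and some genes of the lists are not reported here. Named genes were the members, genes with at least 10 counts over their exons or in a copy, the highest and lowest of each list, and GLDC, TYMS, ALDH1L1, ALDH1L2 and ATF4. Transcripts of 510 genes matching PSPH, and 1 matching MTHFD2, only outside the coding sequence were not named, a departure from that rule, and copies with fewer counts, GCSH, MTR, MAT1A, AHCY, PPAT, SLC19A1 and the markers were named after their values were seen.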

Additional observations from a re-analysis of the deposited data

How the results depend on the processing

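The ratios depended on the gene length. With the MANE Select transcript as length, the log2 ratios were 2.55 for SHMT2 over SHMT1, 3.38 for MTHFD2 over MTHFD2L, -1.23 for MTHFD1L over MTHFD1 (reversed) and 1.02 for mitochondrial over cytosolic members. With exon bases that no other gene shares, they were 3.00, 4.26, 0.56 and 2.16, and the mean levels of all 9 members were lower by over 1.5 times, from 2.19 TPM for MTHFD2L to 270 TPM for PSAT1. In CPM, which is not per length, they were 2.32, 4.29, -1.10 (reversed) and 0.97, and 2 neighbouring pairs overlapped in place of 1. The reversals follow from the lengths, since the counts were the same. Leaving out each replicate gave 2.91 to 2.96, 4.03 to 4.09, 0.72 to 0.73 and 2.17 to 2.18 for these ratios, 0 to 1 overlapping pairs, and 0 to 2 members past counting error, with 0 without replicate 3 and 1 without replicate 2. At an adjusted p of 0.01, 1 member passed, and with DESeq2 size factors 3 did, MTHFD1L added. The members in the high class numbered 7 or 8 under every alternative run, and the pathway genes 19 to 32. Mean levels of the members moved by less than their SD under TMM, DESeq2 scaling, the median and each left-out replicate. Without mitochondrial genes in the total all 9 means were higher, 5 of them by more than their SD. No paired analysis was possible because there is a single group. Depth limits MTHFD2L, at 95 to 129 counts, most.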
